A study of Mus musculus with 7 samples.

Results

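Iron transport and storage was followed through 8 listed genes, namely Tf, Tfrc, Cp, Heph, Slc40a1, Slc11a2, Fth1 and Hfe, out of 19938 genes read on the arrays. The genes were listed by symbol, and the list was chosen with earlier results of these data known. All 8 were represented by 1 probe set each that is annotated to a single gene, 7 under the listed symbol and Tf under Trf, the symbol of the same mouse gene in RefSeq. Expression had been measured in cell pellets of the retinal pigment epithelium (RPE), the pigmented layer behind the photoreceptors. The Mfrp rd6 group held 3 samples, and the wild-type group held 4, all on the C57Bl/6J background. Mfrp encodes a membrane protein made by the RPE, and the rd6 allele is a recessive mutation of it that leads to retinal degeneration. The age field gives 12 weeks for all Mfrp rd6 samples and 8 weeks for all wild-type samples, whereas the growth protocol gives 12 weeks for Mfrp rd6 replicate 1 and 8 weeks for every other sample. By the age field, age and genotype cannot be told apart. Whether replicates are separate animals is not stated in the labels, and the p-values therefore cover only the variation among these samples, part or all of which may be technical.

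Iron travels in blood bound to transferrin, and cells take the complex up through the transferrin receptor, release the iron in endosomes and pass it to the cytosol through the divalent metal transporter Slc11a2. Surplus iron is held in ferritin or leaves through ferroportin (Slc40a1), helped by the ferroxidases ceruloplasmin and hephaestin, which turn ferrous into ferric iron. Iron regulatory proteins bind elements in several of these transcripts, and binding protects the transferrin receptor transcript from decay and blocks the translation of ferritin, a step that RNA arrays do not read. In the retina, loss of both ferroxidases in mice is known to load the RPE with iron.

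None of the 8 genes passed the test between Mfrp rd6 and wild-type RPE samples. In limma's fit over all genes 0 of 8 passed an adjusted p of 0.05, where 2.15% of all genes did, and 0 of 8 had an unadjusted p under 0.05, where 15.4% of all genes did. The estimates were small on the log2 scale, with the largest at -0.22 for Tfrc, and no 95% confidence interval of this fit reached beyond 0.48 in either direction. When the mean of 12 skeletal muscle markers was added to the fit, 0 of 8 passed again, but Cp stood at 0.39 (95% confidence interval -0.08 to 0.87), Heph at -0.35 (-0.70 to 0.00168), Tfrc at -0.29 (-0.81 to 0.24), Slc40a1 at -0.15 (-0.85 to 0.55) and Tf at -0.14 (-0.41 to 0.13). The change was negative for 6 genes and positive for 2. Its median over the 8 genes was -0.07 and the median of its size 0.10, beside -0.02 and 0.09 over all genes. The standard errors of the 8 changes ran from 0.06 to 0.15, around the 0.09 that was the median of all genes. On the log2 scale used throughout, a difference of 1 is a doubling, and signals of different genes are not compared.

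**Figure D1:**
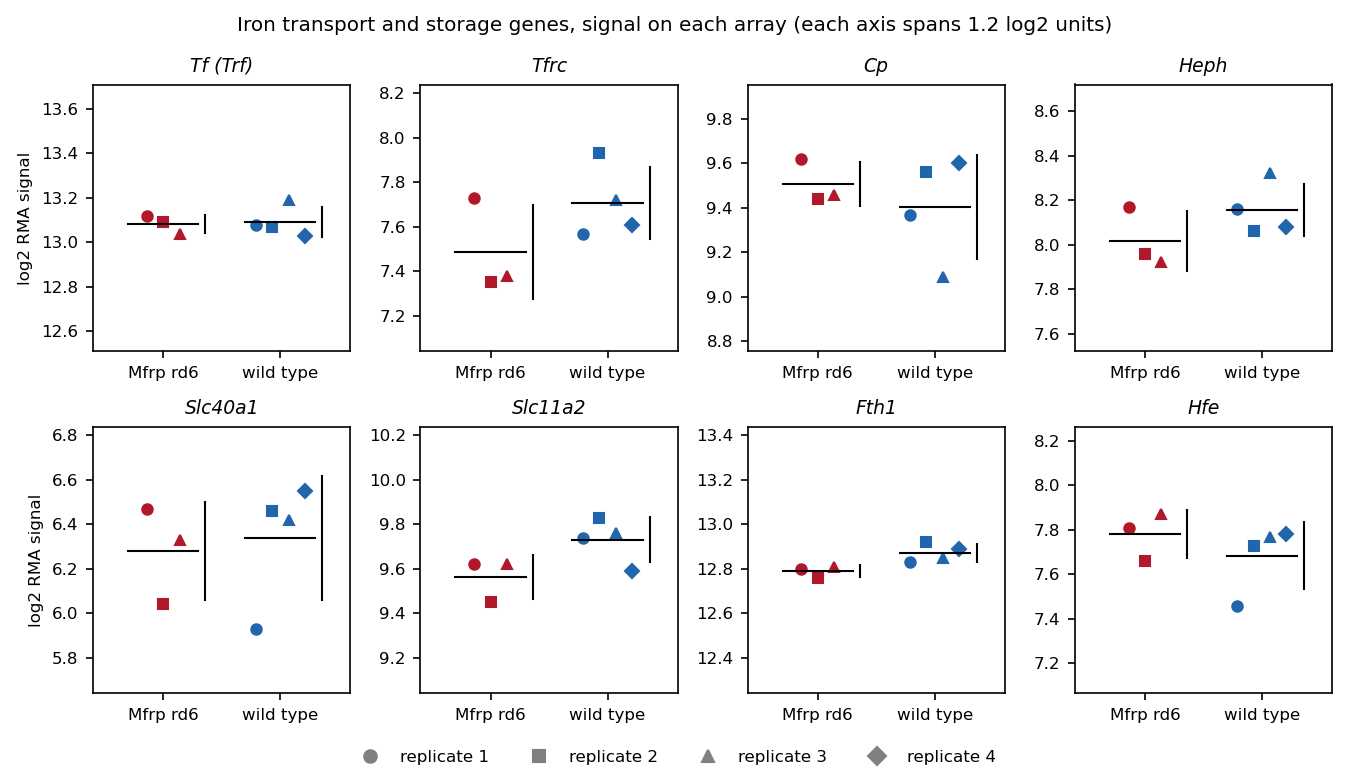
Log2 RMA signal of the 8 iron genes on each array (vertical axis, each spanning 1.2 log2 units), with Mfrp rd6 in red on the left and wild type in blue on the right. Symbols mark replicate numbers, horizontal lines the group means and vertical bars 1 SD to each side. The groups overlap in every panel but that of Fth1, where the arrays of Mfrp rd6 lie between 12.76 and 12.81 and those of wild type between 12.83 and 12.92.

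Transferrin (Tf, read as Trf), the carrier of iron in plasma and in ocular fluids, was strongly detected and read alike in both groups. It read 13.12, 13.09 and 13.04 on Mfrp rd6 replicates 1 to 3, against 13.08, 13.07, 13.19 and 13.03 on wild-type replicates 1 to 4. All 3 Mfrp rd6 arrays lay inside the wild-type range. The means were 13.08 ± 0.04 (SD, n = 3) in Mfrp rd6 and 13.09 ± 0.07 (SD, n = 4) in wild type, a difference of -0.01 (95% confidence interval -0.16 to 0.14, limma adjusted p = 0.972). In folds the interval ran from 1.12-fold lower to 1.10-fold higher in Mfrp rd6. These signals are near the highest value in the whole table, 13.81, and no test was made of how far the arrays still respond there.

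The transferrin receptor Tfrc, which takes iron-loaded transferrin into the cell, had the largest change of the 8 genes, and it did not pass. Its signal was 7.73, 7.35 and 7.38 on Mfrp rd6 replicates 1 to 3, against 7.57, 7.93, 7.72 and 7.61 on wild-type replicates 1 to 4. Replicates 2 and 3 of Mfrp rd6 lay below every wild-type array, while replicate 1 lay inside the wild-type range. The means were 7.49 ± 0.21 (SD, n = 3) in Mfrp rd6 and 7.71 ± 0.16 (SD, n = 4) in wild type, a difference of -0.22 (95% confidence interval -0.48 to 0.04, limma adjusted p = 0.42). The interval allowed anything from 1.40-fold lower to 1.03-fold higher. Without Mfrp rd6 replicate 1, which compares arrays of 8 weeks only under the growth protocol, the difference was -0.34 (95% confidence interval -0.59 to -0.09) with an unadjusted p of 0.0131 and an adjusted p of 0.223 in limma's fit. Over the 7 fits that left out 1 array, the difference ran from -0.34 to -0.15, with limma adjusted p from 0.223 to 0.735.

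The promoter of Tfrc is known to answer to hypoxia, and the letters of the core element that hypoxia-inducible factors bind stand at its first annotated start. They are given in capitals in the 30 bases below, from RefSeq's GRCm38.p6, chr16:32608879-32608908, plus strand.
Tfrc: cacctcggtaggtgtACGTGcggaaggaag
The core begins 2 bases before the first annotated start and 228 bases before the second. Promoter windows, reaching from 250 bases before to 50 after a start, were matched for 4 of the 8 genes (Tfrc, Cp, Fth1 and Hfe), with 7 windows in all. ACGTG was found on either strand in both overlapping Tfrc windows and in no window of the other 3, and 19.6% of 32851 mouse windows hold it. TGACNNNGC, the core of the antioxidant response element, was found in the window of Hfe alone, and 12.4% of all windows hold it. Both are matches of letters, and no binding was measured.

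Slc11a2, the divalent metal transporter that moves iron out of the endosome, read slightly lower in Mfrp rd6 without passing. It stood at 9.62, 9.45 and 9.62 on Mfrp rd6 replicates 1 to 3, against 9.74, 9.83, 9.76 and 9.59 on wild-type replicates 1 to 4. Wild-type replicate 4 was the one array of its group below Mfrp rd6 replicates 1 and 3, so the groups overlapped. The difference of the means, 9.56 ± 0.10 (SD, n = 3) in Mfrp rd6 and 9.73 ± 0.10 (SD, n = 4) in wild type, was -0.17 (95% confidence interval -0.35 to 0.02, limma adjusted p = 0.373). The transcript exists in forms with and without an iron-responsive element, which were not resolved here.

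Hfe, a relative of class I histocompatibility molecules that binds the transferrin receptor and takes part in iron sensing, showed no separation either. Its values were 7.81, 7.66 and 7.87 in Mfrp rd6, against 7.46, 7.73, 7.77 and 7.78 in wild type, each in replicate order. Wild-type replicate 1 stood apart below the rest. The means were 7.78 ± 0.11 (SD, n = 3) in Mfrp rd6 and 7.69 ± 0.15 (SD, n = 4) in wild type, a difference of 0.10 (95% confidence interval -0.12 to 0.31, limma adjusted p = 0.714), and without wild-type replicate 1 it was 0.02. B2m, the light chain that Hfe needs to reach the cell surface, read 12.45, 12.38 and 12.41 in Mfrp rd6, against 12.23, 12.33, 12.24 and 12.24 in wild type. Those groups did not overlap, and the B2m difference of 0.15 did not pass (limma adjusted p = 0.29).

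Among the genes of iron export, ferroportin (Slc40a1), the one known iron exporter of mammalian cells, had the widest spread. It read 6.47, 6.04 and 6.33 on Mfrp rd6 replicates 1 to 3, against 5.93, 6.46, 6.42 and 6.55 on wild-type replicates 1 to 4. All Mfrp rd6 arrays fell inside the wild-type range, which wild-type replicate 1 stretched downward. The means were 6.28 ± 0.22 (SD, n = 3) in Mfrp rd6 and 6.34 ± 0.28 (SD, n = 4) in wild type, a difference of -0.06 with a 95% confidence interval of -0.41 to 0.28 (limma adjusted p = 0.904). In folds this ran from 1.32-fold lower to 1.22-fold higher. Leaving out wild-type replicate 1 gave a difference of -0.20 and leaving out Mfrp rd6 replicate 2 gave 0.06, so the sign rested on single arrays.

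Ceruloplasmin (Cp), a copper-dependent ferroxidase that is secreted or held on the cell surface, read 9.62, 9.44 and 9.46 in Mfrp rd6, against 9.37, 9.56, 9.09 and 9.60 in wild type. The wild-type arrays spread more widely (SD 0.23, n = 4) than the Mfrp rd6 arrays (SD 0.10, n = 3), and 2 of the 3 Mfrp rd6 arrays lay between them. The difference was 0.10 (95% confidence interval -0.17 to 0.37, limma adjusted p = 0.769), and it came to -0.0033 without wild-type replicate 3, the lowest array. Hephaestin (Heph), the membrane-bound ferroxidase of the same family, read 8.17, 7.96 and 7.92 in Mfrp rd6, against 8.16, 8.06, 8.32 and 8.08 in wild type. Here replicates 2 and 3 of Mfrp rd6 were below every wild-type array and replicate 1 was not, as for Tfrc. The Heph difference was -0.14 (95% confidence interval -0.34 to 0.07, limma adjusted p = 0.534). Without Mfrp rd6 replicate 1 it was -0.22 (limma adjusted p = 0.363). Over the fits that left out 1 array, the Heph difference ran from -0.22 to -0.08, with limma adjusted p up to 0.796.

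Ferritin heavy chain (Fth1), the ferritin subunit that oxidises iron for storage, had the lowest standard error of the 8 genes and the one complete separation. It read 12.80, 12.76 and 12.81 on Mfrp rd6 replicates 1 to 3, against 12.83, 12.92, 12.85 and 12.89 on wild-type replicates 1 to 4. Every Mfrp rd6 array lay below every wild-type array, as for 9.82% of all genes, while 5.52% were fully separated upward and 15.3% in either direction. The means were 12.79 ± 0.03 (SD, n = 3) in Mfrp rd6 and 12.87 ± 0.04 (SD, n = 4) in wild type. The difference of -0.08 did not pass (95% confidence interval -0.22 to 0.06, limma adjusted p = 0.604), and the interval reached no further down than 1.17-fold lower. As for Tf, such signals lie high on the scale, where the response of the arrays was not tested. Fth1 has processed pseudogene copies in the mouse genome, and signal from such copies was not told apart. Ftl1, the light chain that completes the ferritin shell, read 12.19 ± 0.07 (SD, n = 3) in Mfrp rd6 and 12.09 ± 0.06 (SD, n = 4) in wild type, a difference of 0.09 (limma adjusted p = 0.587).

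**Figure D2:**
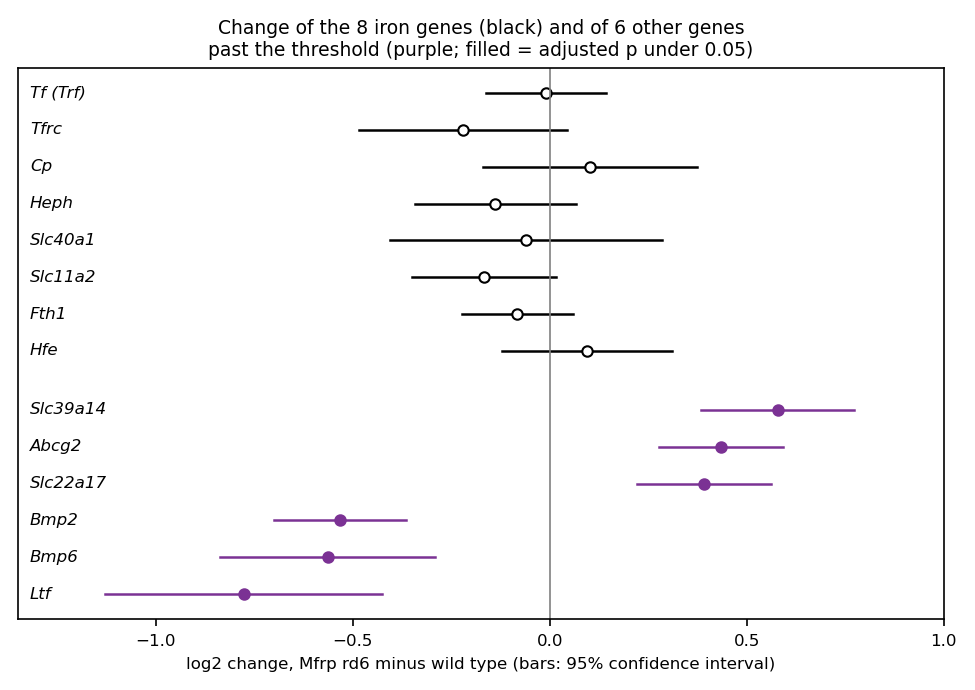
Log2 change, Mfrp rd6 minus wild type (horizontal axis), with 95% confidence intervals from limma for the 8 iron genes in black and for the 6 other iron and heme genes that passed in purple. Filled points passed an adjusted p of 0.05. All 8 black intervals cross 0, and the estimates run from -0.22 to 0.10.

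The same arrays were low in several of the 8 genes. Mfrp rd6 replicate 2 was the lowest array of its group in 6 of the 8 genes and the lowest of all 7 arrays in 3 of them (Tfrc, Slc11a2 and Fth1). Wild-type replicate 1 was the lowest of all 7 arrays for Slc40a1 and Hfe. Over the 7 arrays the genes whose signal followed that of Tfrc most closely, among 17152 compared, were Tmf1, Yme1l1 and Abhd17b. Their Pearson correlations with Tfrc were 0.984, 0.98 and 0.979 and their Spearman correlations 0.929, 0.937 and 0.964. These genes were picked for their likeness on 7 arrays that share a normalization, so the coefficients describe the arrays and carry no test. Their changes of -0.08, -0.12 and -0.15 did not pass (limma adjusted p from 0.447 to 0.669).

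The pellets carried RPE transcripts at a like level in both groups, with other cell types beside them. The mean of 10 RPE markers was 10.94 ± 0.04 (SD, n = 3) in Mfrp rd6 and 10.99 ± 0.05 (SD, n = 4) in wild type, with 0 higher and 1 lower past the threshold. Of 16 markers of microglia and macrophages 12 rose, and their mean lay between 8.50 and 9.05 on the Mfrp rd6 arrays, against 7.10 to 7.20 on the wild-type arrays. Of 12 skeletal muscle markers 3 rose, with means of 8.08 to 9.03 in Mfrp rd6, against 6.76 to 7.07 on wild-type replicates 1, 2 and 4 and 8.03 on wild-type replicate 3. Of 9 markers of choroidal endothelium 2 rose, with means of 7.37 to 7.78 in Mfrp rd6, against 6.82 to 7.33 in wild type. No marker passed among 9 of rods, 8 of Mueller glia, 7 of Schwann cells and oligodendrocytes, 3 of erythroid cells, 7 of surface epithelium and 7 of melanocytes. Even so, the surface epithelium mean was lower without overlap, at 11.43 to 11.53 in Mfrp rd6, against 11.57 to 11.72 in wild type. Of its 7 markers 3 had a positive change, and the changes ran from -0.77 for Krt12 to 0.05, with a median of -0.08. All 9 rod markers had a negative change, with means of 6.92 to 7.26 in Mfrp rd6, against 7.13 to 8.22 in wild type. In such pellets, fewer cells of a type and less RNA per cell cannot be told apart. The mutated gene itself shares its probe set with the adjacent gene C1qtnf5, which leaves the genotype labels unchecked. Of these cells, skeletal muscle was set into the fit of the 8 iron genes through its marker mean, with the values given above, and the part of the others was not tested. The muscle mean was higher on every Mfrp rd6 array than on any wild-type array, so that fit only partly tells muscle from genotype.

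Around the 8 genes, 6 lists with 73 measured genes of iron, copper and heme handling were read in the same fit, and 3 rose and 3 fell. Over all genes 1.34% rose and 0.813% fell. The median change of the 73 genes was -0.02, as was that of all genes, and 19 of them did not overlap between the groups, where 15.3% of all genes did not. No gene passed among 5 of ferritin and its turnover, 7 of the copper supply of ferroxidases and 13 of mitochondrial iron and iron-sulfur clusters. By unadjusted limma p under 0.05 there were 20 of the 73, where 15.4% of all genes had such a p.

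**Figure D3:**
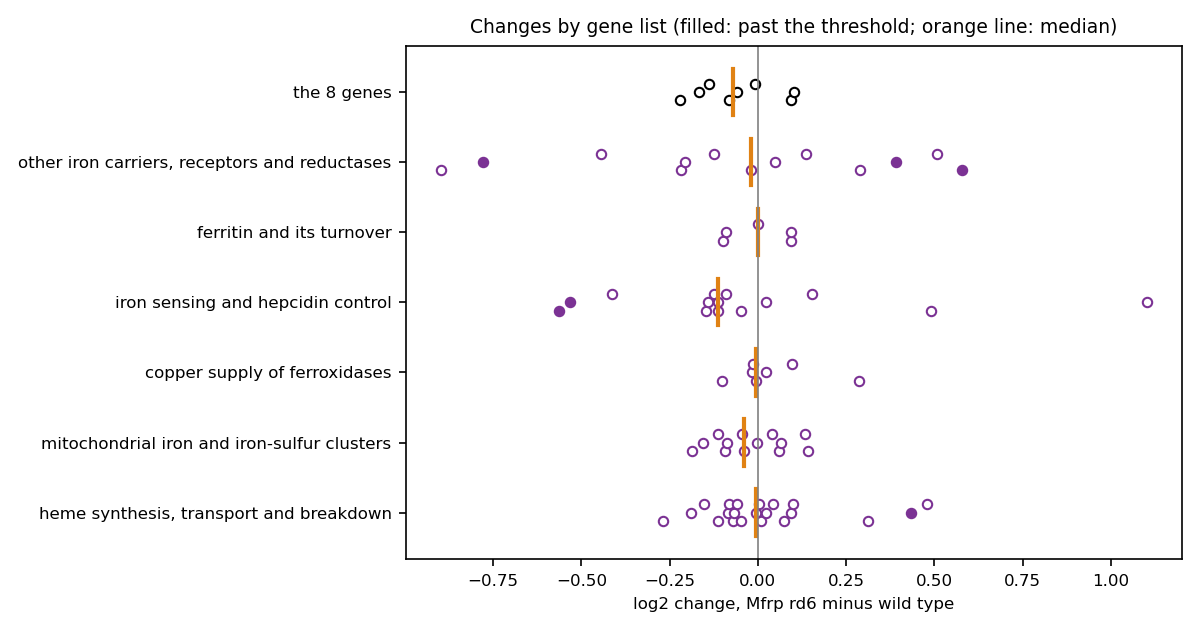
Log2 change, Mfrp rd6 minus wild type (horizontal axis), of each measured gene by list, with the 8 genes on top and the 6 lists of other genes under them. Filled points passed an adjusted p of 0.05 and orange lines mark medians. The 8 genes lie between -0.22 and 0.10 and the copper, ferritin and mitochondrial lists hold no filled point.

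Among 13 other iron carriers, receptors and reductases, 2 rose and 1 fell. Slc39a14, a membrane importer of zinc and of iron not bound to transferrin, read 8.53, 8.39 and 8.41 in Mfrp rd6, against 7.68, 7.90, 7.99 and 7.89 in wild type. It rose 1.49-fold (log2 0.58, SE 0.09, limma adjusted p = 0.0101). The related importer Slc39a8 differed by -0.02. Slc22a17, a receptor for the siderophore-binding protein lipocalin 2, read 10.50, 10.34 and 10.40 in Mfrp rd6, against 9.92, 9.98, 10.09 and 10.10 in wild type, and rose by 0.39 (SE 0.08, limma adjusted p = 0.0321). Both sets of arrays were fully separated. Ltf, lactotransferrin, an iron-binding protein of secretions and of neutrophil granules, read 8.86, 9.54 and 9.35 in Mfrp rd6, against 10.00, 10.17, 10.16 and 9.78 in wild type, and fell 1.71-fold (log2 -0.78, SE 0.16, limma adjusted p = 0.0389). Lcn2, lipocalin 2 itself, read 10.06, 11.77 and 10.46 in Mfrp rd6, against 10.34, 10.55, 10.33 and 9.80 in wild type, and did not pass (limma adjusted p = 0.55). Mfrp rd6 replicate 2 stood far above the other arrays for Lcn2, and the difference was 0.51. Slc39a14 passed whichever single array was left out, whereas Slc22a17 passed in none of those 7 fits (0.35 to 0.43, adjusted p from 0.0557 to 0.124), and Ltf did not pass without wild-type replicates 1 (-0.79), 2 (-0.73) or 3 (-0.73) or Mfrp rd6 replicates 1 (-0.58) or 3 (-0.83), with adjusted p up to 0.0979. On these arrays the mean of the 16 microglia and macrophage markers was higher by 1.58, and its part in the 3 changes was not tested. The surface epithelium mean differed by -0.16, and its part in the change of Ltf was not tested either. Of its 7 markers 3 had a positive and 4 a negative change, with a median of -0.08. The keratin Krt12 was the lowest of them at -0.77 (limma adjusted p = 0.181). Skeletal muscle markers averaged 1.41 higher. When their mean was added to the fit, Slc39a14 changed by 0.40 (adjusted p = 0.521), Slc22a17 by 0.30 (adjusted p = 0.64) and Ltf by -0.91 (adjusted p = 0.471), none of which passed.

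Of 14 genes of iron sensing and hepcidin control 0 rose and 2 fell, both of them ligands. Bmp6 and Bmp2 are secreted bone morphogenetic proteins that in the liver drive the gene of hepcidin, the hormone that closes ferroportin. Bmp2 read 8.95, 8.83 and 8.71 in Mfrp rd6, against 9.39, 9.32, 9.36 and 9.38 in wild type, and fell 1.45-fold (log2 -0.53, SE 0.07, limma adjusted p = 0.00696). Bmp6 read 9.55, 9.82 and 9.35 in Mfrp rd6, against 10.08, 10.02, 10.37 and 10.08 in wild type, and fell 1.48-fold (log2 -0.56, SE 0.12, limma adjusted p = 0.049998). Every Mfrp rd6 array was below every wild-type array for both genes. Hamp, the hepcidin gene, read 3.60, 3.16 and 3.59 in Mfrp rd6, against 3.80, 3.23, 3.53 and 3.69 in wild type. It did not pass (limma adjusted p = 0.797), but it read near the floor, at percentile 4.82 of the mean signals of all genes. A change there could be missed. Hamp2, from the same list, differed by -0.15 (limma adjusted p = 0.734). Both were named here after their values were seen. Bmp2 passed whichever single array was left out, though not when Mfrp rd6 replicate 2 and wild-type replicate 3 were both absent (-0.53, adjusted p = 0.0745). Bmp6 passed only without Mfrp rd6 replicate 2, and each of the other 6 such fits gave a change of -0.45 to -0.60 and an adjusted p of 0.0747 to 0.147. The endothelial marker mean was 0.43 higher in Mfrp rd6 on these arrays and the RPE marker mean -0.05, and their part was not tested. Bmp2 did not pass once the muscle marker mean was added to the fit (-0.61, adjusted p = 0.227), whereas Bmp6 then stood at -1.03 and passed (adjusted p = 0.0433).

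Among 21 genes of heme synthesis, transport and breakdown, 1 rose and 0 fell. Abcg2, a membrane pump that exports heme and porphyrins and is common in endothelium, read 5.89, 5.86 and 5.94 in Mfrp rd6, against 5.51, 5.41, 5.55 and 5.38 in wild type. It rose 1.35-fold (log2 0.43, SE 0.07, limma adjusted p = 0.014), and the endothelial marker mean was 0.43 higher on the same arrays, whose part was not tested. With a mean of 5.65 over all arrays, Abcg2 was dim, at percentile 27.2 of the mean signals of all genes. The Abcg2 call was lost when wild-type replicate 4 was left out, at 0.41 with an adjusted p of 0.0505. It was lost as well when Mfrp rd6 replicate 1 (0.44) or 3 (0.41) was left out, at an adjusted p of 0.057 and 0.0501, and once the muscle marker mean was added to the fit, at 0.40 with an adjusted p of 0.469. Slc48a1, which carries heme out of the lysosome, read 12.13 ± 0.05 (SD, n = 3) in Mfrp rd6 and 12.20 ± 0.13 (SD, n = 4) in wild type and did not pass (limma adjusted p = 0.762). In the lists without a changed gene, the iron-sulfur scaffold Iscu differed by 0.07 and the copper transporter Slc31a2 by -0.01.

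**Figure D4:**
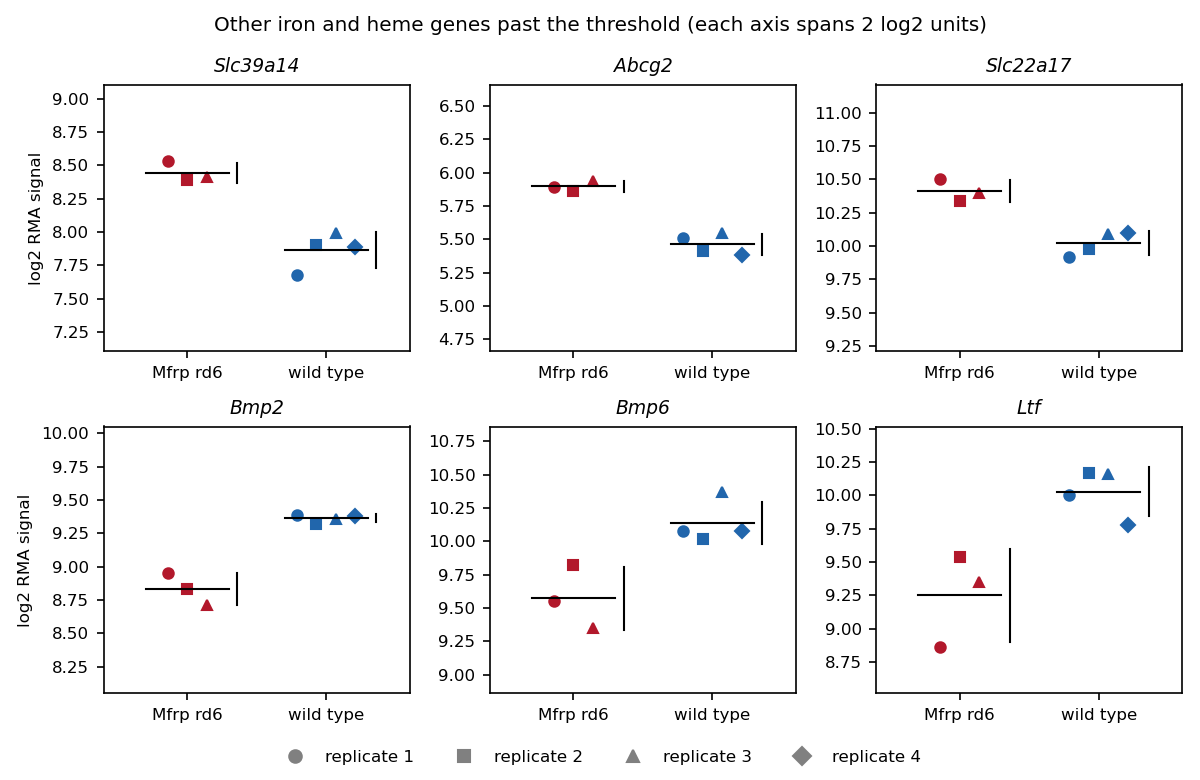
Log2 RMA signal on each array (vertical axis, each spanning 2 log2 units) of the 6 other iron and heme genes that passed, with Mfrp rd6 in red on the left and wild type in blue on the right. Symbols mark replicate numbers, horizontal lines the group means and vertical bars 1 SD to each side. Slc39a14, Abcg2 and Slc22a17 are higher and Bmp2, Bmp6 and Ltf lower on all 3 Mfrp rd6 arrays than on any wild-type array.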

How the data were processed

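The measurements come as 1 table that the authors deposited as log2 values, covering 35556 probe sets on 7 arrays. Affymetrix Expression Console and RMA are named per the submitters' processing notes. RMA corrects background, equalises the arrays, summarises the probes of a set and compresses changes of dim probe sets. Software versions, not given in the sources used here, are left out. Values ran from 1.91 to 13.81, and medians of single arrays from 6.52 to 6.58. The number of arrays limits the precision.

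Gene names follow the platform annotation, under which 21789 probe sets had 1 symbol, 1621 several and 12146 none. For each of 19938 genes the probe set with the highest mean was kept. Tf was matched to Trf through its Entrez identifier and synonym in RefSeq (GRCm38.p6), whose promoter windows were used too.

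The contrast of Mfrp rd6 over wild type was fitted to all genes by limma 3.58.1 in R 4.3.3, through lmFit and eBayes, leaving 5 residual and 4.56 prior degrees of freedom. Adjustment followed Benjamini and Hochberg over all genes, at a threshold of 0.05. The fit was tested on simulated data. The 8 genes, the 6 other lists (79 entries, of which 73 genes were measured, 3 repeated another entry and 3 were not analysed here) and the 10 marker lists were chosen with earlier results of these data known. Named were the 8 genes, all other iron genes that passed, the member of each list with the highest mean signal and the 3 genes most like Tfrc, the gene with the largest change. Other genes were named after their values were seen.

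Alternatives were 3 other normalizations, 2 filters on dim genes (a mean of at least 6, or above the median), a robust fit with a variance trend, weighted arrays, averaged or separate probe sets of a gene, a replicate block, muscle markers as a covariate and leaving out arrays. Tables and figures were made in Python 3.11.15 (pandas 2.3.3, matplotlib 3.10.9).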

Additional observations from a re-analysis of the deposited data

Results flagged for a closer look

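In wild type, Hfe read 7.46 on replicate 1, apart from the 7.73 to 7.78 of the other 3 arrays. B2m read 12.33 on wild-type replicate 2, apart from 12.23 to 12.24 on the others. The mean of the genes of ferritin and its turnover, rounded to 10.06 on wild-type replicate 2 and to 10.11 to 10.12 on the others, was flagged as well. For Hfe and B2m the gap to the nearest array passed Dixon's limit for 4 samples, at 0.844 and 0.9 of the group's range. The ferritin gap, 0.833 on the rounded means, falls short of that limit without rounding. Of 37 such groups 3 were flagged, including this one, where chance gives about 1 in 20.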

How the results depend on the processing

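The count of 0 changed among the 8 iron genes held in all 19 alternatives, and over the 151 resulting values of single genes the lowest adjusted p was 0.2005. The sign changed in some alternatives for Trf, Cp and Slc40a1, whose differences were -0.01, 0.10 and -0.06 in the fit above. The Trf difference was 0.019 with array weights, 0.023 without wild-type replicate 3, 0.0125 without Mfrp rd6 replicate 3 and 0.02 when wild-type replicate 3 and the second Mfrp rd6 array were both left out, and leaving out 1 array gave -0.03 to 0.023. The Cp difference was -0.0033 without wild-type replicate 3 and up to 0.17 without another array. With muscle markers in the fit it was 0.39, and that of Heph -0.35 and of Trf -0.14, the farthest that these 3 moved in any alternative. The Slc40a1 difference was 0.01 with the replicate block, 0.01 without wild-type replicate 4, 0.06 without Mfrp rd6 replicate 2 and 0.087 without that pair of arrays, with -0.20 to 0.06 when 1 array was left out. Slc40a1 gave no value among genes above the median level, where it was not tested. Abcg2, one of the other iron genes, was too dim to be tested under either filter on dim genes. Of the 73 other iron genes, 6 changed, and the count was 11 with a variance trend and robust moderation, 3 without the same pair of arrays, 1 with muscle markers in the fit, 1 with the replicate block and 2 to 5 when 1 array was left out. Over all genes 429 changed, against 718 with the variance trend and robust moderation, 679 with array weights, 226 with the replicate block, 48 with muscle markers in the fit, 193 without the pair of arrays and 211 to 325 when 1 array was left out. The cause of these shifts was not tested. Whether replicate numbers pair the arrays could not be decided from 3 same-numbered pairs. Deviations from the group means correlated at -0.303, -0.0729 and 0.0364 for those pairs, and at -0.266 to 0.369 for the others. With the replicate number as a block 0 of the 8 genes passed. Of the 6 changed iron genes, Slc39a14, Slc22a17, Bmp2, Bmp6 and Abcg2 did not pass with that block and Ltf did. Without the pair of arrays Slc39a14 and Bmp6 passed, and Slc22a17, Ltf, Bmp2 and Abcg2 did not. Bmp6 also missed under quantile normalization, cyclic loess and separate probe sets (limma adjusted p = 0.0587, 0.0575 and 0.053). Ltf missed under quantile normalization and array weights (limma adjusted p = 0.0541 and 0.0634). Over 19 alternatives Slc39a14 passed in 17, Bmp2 in 16, Ltf in 10, and Bmp6 and Slc22a17 in 9 each. Abcg2 passed in 11 of 17. The median standard error of a change was 0.09 on the log2 scale, and differences several times that size also missed the threshold, such as -0.41 for Aco1.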

Other observations

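Other iron genes, chosen after their values were seen, had sizeable differences that missed the threshold. Hjv, hemojuvelin, a BMP co-receptor of liver and skeletal muscle, read 7.50, 7.83 and 6.74 in Mfrp rd6, against 5.89, 6.31, 6.63 and 6.19 in wild type (1.10, limma adjusted p = 0.0534). The skeletal muscle marker mean was 1.41 higher on the same arrays, and its part in Hjv was not tested. Id1, a target of BMP signalling, was 0.49 higher (limma adjusted p = 0.0504) while the ligands Bmp2 and Bmp6 were lower. Aco1, which as iron regulatory protein 1 binds iron-responsive elements, read 9.70, 9.88 and 9.56 in Mfrp rd6, against 10.15, 10.04, 10.28 and 10.04 in wild type (-0.41, limma adjusted p = 0.0641), and its partner Ireb2 differed by -0.14. Hmox1, the inducible heme oxygenase, read 8.45, 8.49 and 8.34 in Mfrp rd6, against 7.59, 8.10, 8.12 and 7.98 in wild type (0.48, limma adjusted p = 0.0959). Steap4, a metalloreductase, differed by -0.90 (limma adjusted p = 0.126), with 7.70 on Mfrp rd6 replicate 2 and 8.88 and 8.66 on the others of that group.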
